A study of Litchi chinensis with 30 samples.

Results

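The cytokinin genes of litchi flowers were taken from the Swiss-Prot names in the deposited expression table. A table entry was a member if its name held cytokinin, isopentenyltransferase, histidine kinase, histidine-containing phosphotransfer, or two-component response regulator with the Arabidopsis (ARR) or rice (ORR) symbol, while pseudo-regulators named regulator-like were left out. Of 37234 entries, 70 were members, at 66 loci. They comprised 6 isopentenyltransferases (IPT), 16 cytokinin riboside monophosphate phosphoribohydrolases (LOG), 2 cytokinin hydroxylases (CYP735A), 9 cytokinin dehydrogenases (CKX), 9 histidine kinases, 7 histidine-containing phosphotransfer proteins (HPt) and 21 response regulators, of which 7 were of type A, 10 of type B and 4 of type C. No member was named a cytokinin glucosyltransferase. Symbols such as LOG3 are those of the best-matching protein, mostly of Arabidopsis, so several litchi genes can carry the same symbol. They are told apart here by their litchi identifiers.

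RNA was sequenced from functionally female (F) and functionally male (M) flowers of the litchi cultivar 'Feizixiao' at 5 stages, which gave 10 groups, F1 to F5 and M1 to M5, each with 3 replicates. Stages 1 to 3 were closed buds of rising size, stage 4 was partly open flowers and stage 5 full bloom. No treatment or genotype separated the groups. The kinds differ in whether carpels or stamens become functional. Each sample was a mixture of organs, so fewer cells of a type and less RNA per cell cannot be told apart.

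Cytokinins are adenine-derived plant hormones that promote cell division and act in meristem size and in carpel and ovule formation. IPT enzymes make the first nucleotide precursors, CYP735A hydroxylates them towards trans-zeatin forms, LOG enzymes release the active bases, and CKX enzymes break them down. Signalling is a phosphorelay, in which receptor histidine kinases pass a phosphoryl group through HPt proteins to response regulators: type B regulators are transcription factors, and type A regulators are genes switched on by cytokinin whose products dampen the response.

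Counts totalled 27433038 to 43760285 per library. Pairwise correlations of log2 counts scaled to library size (CPM) between replicates were 0.947 to 0.961 in 9 groups and 0.922 to 0.948 in F2. Replicates 1 and 3 of F2 lay at opposite ends for several families, such as the summed CKX and hydroxylase members. Without F2 replicate 1 or F2 replicate 3 the members called at stage 2 rose from 0 to 4 or 2. Over all genes the calls at that stage rose too, from 149 of 27854 tested to 363 of 28349 or 344 of 28337. Per the methods, plant material was taken in triplicate from sides of the tree facing all compass directions. Neither the methods nor the labels say that replicates came from separate trees. The tests therefore measure the spread between these samples, which may lie within a tree or be technical in part.

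The flower labels were set against organ markers at stages 4 and 5. The STK-type MADS-box gene, a marker of ovules in Arabidopsis, had means of 12.05 and 12.999 FPKM (fragments per kilobase of transcript, scaled by library depth) in F4 and F5 and 0.587 and 0.389 FPKM in M4 and M5. Of 3 carpel and ovule markers, 1 was higher in female flowers at stage 4 and 2 at stage 5, while CRABS CLAW, known in Arabidopsis from carpels and nectaries, was higher in male flowers at both. Both petal and stamen markers and 3 of 4 pollen markers were higher in male flowers at stages 4 and 5. Summed over each list, carpel and ovule markers ranged from 186 to 308 FPKM in F5 and from 420 to 463 in M5, petal and stamen markers from 151 to 222 and from 379 to 408, and pollen markers from 244 to 272 and from 165 to 186, the last set mostly by the pollen-specific protein C13. The carpel and ovule sum was set mostly by CRABS CLAW, with means of 203 FPKM in F5 and 430 in M5. The other 2 markers of that list were higher in female flowers at full bloom. No marker was at 0 over all libraries. These organ differences moved with every difference between the sexes at stages 4 and 5 given below, and their part in the results was not tested.

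A member was called when the edgeR quasi-likelihood test gave a false discovery rate (FDR, Benjamini-Hochberg over all tested genes) under 0.01 with a fold change of at least 2. Of the 70 members, 57 had enough counts to be tested and 49 averaged at least 1 FPKM in a group. Another 4, namely 2 named IPT5, 1 named CKI1 and 1 named AHP2, had no count in any library. Log2 fold changes are positive when female flowers, or the later stage, were higher. They are on the scale of trimmed-mean (TMM) scaled counts. FPKM values are scaled by library totals instead, and under library totals the median gene of the whole table stood at 0.50 log2 units in favour of female flowers at stage 5, against 0.03 under TMM, so that FPKM ratios at full bloom lie above the fitted ones.

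Few of these genes were called between the sexes in buds. At stage 1, 2 of the 57 tested members were called (1.32% of all 27854 tested genes), both lower in female flowers. At stage 2 none was called (0.535% of all genes), and at stage 3 none was called (0.761% of all genes). An unadjusted edgeR p under 0.05 was seen for 16 members at stage 2 and 13 at stage 3. The share of all genes under that value was not counted, so these 2 counts have no background beside them. DESeq2 called 1 member at each of these 2 stages. At stage 4, 17 members were called (16.9% of all genes), which is 29.8% of those tested, with 12 higher and 5 lower in female flowers (9.55% and 7.4% of all genes). The members' median log2 fold change was 0.47, beside -0.02 over all genes. At full bloom 19 were called (29.2% of all genes), 33.3% of those tested, with 14 higher and 5 lower in female flowers (17.6% and 11.6% of all genes). Their median was 0.63, or 0.66 with genes lacking counts in 1 sex set to a floor of 3 counts over the group, beside 0.03 over all genes. The share called at full bloom was thus near that of all genes. At both stages 11 members were called, all 11 in the same direction, and 25 at some stage. These overlaps were not counted over all genes, so whether they are unusual was not tested.

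**Figure D1:**
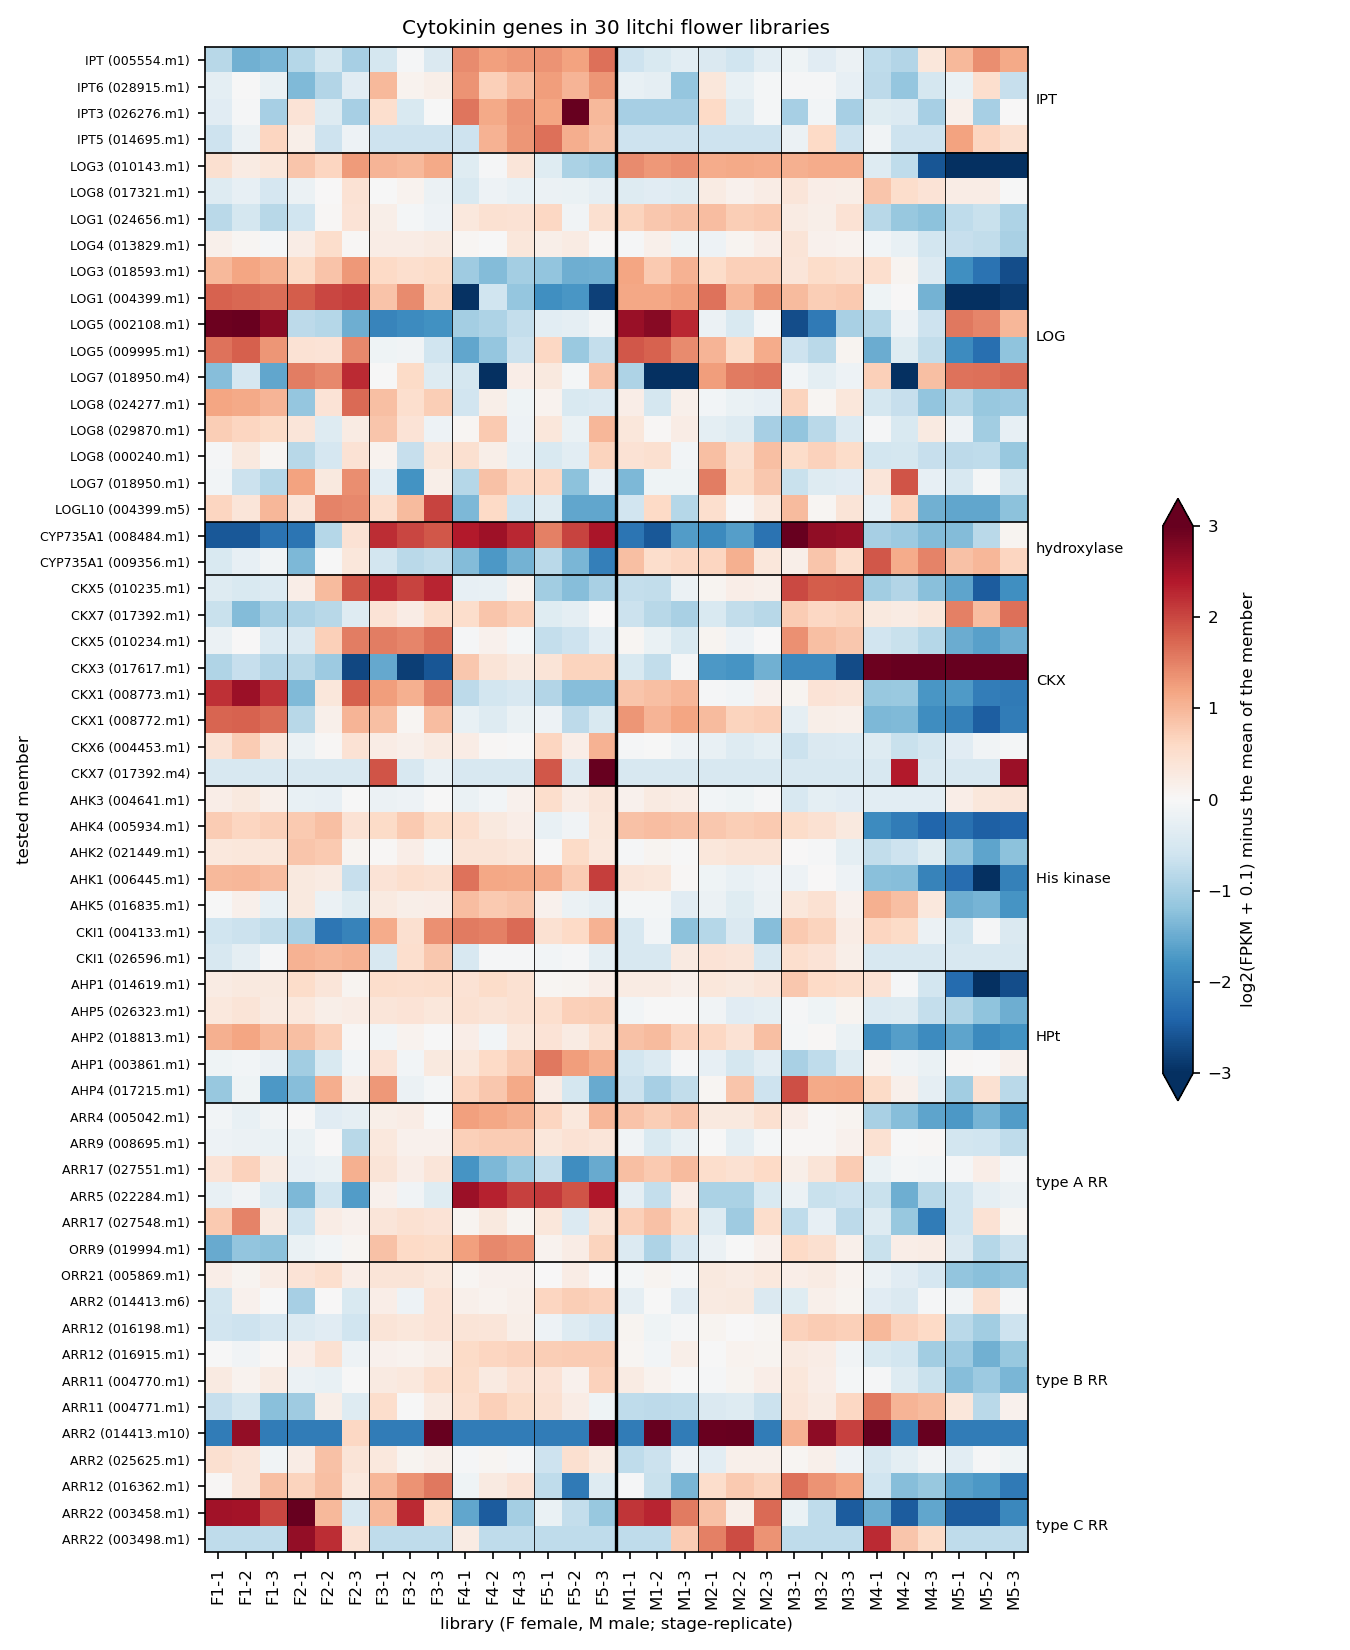
Expression of the 57 tested members (rows, grouped by role) in the 30 libraries (columns), as log2(FPKM + 0.1) minus the mean of each member, red above and blue below that mean. The libraries of M4 and M5 turn blue for LOG3 LITCHI010143, AHK4, AHK1, AHP2 and ARR4, and red for CKX3.

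Precursor synthesis was weakly expressed. The most abundant IPT entry, LITCHI005554.m1, an adenylate isopentenyltransferase whose name comes from hop (Humulus lupulus), stood at 2.64, 2.32 and 2.43 FPKM in F4 and at 0.515, 0.459 and 1.21 FPKM in M4. The ranges did not overlap, and the log2 fold change was 1.53 ± 0.28 (SE, FDR = 0.00011). In M5 it had reached 1.93, 2.64 and 2.18 FPKM, which overlapped with 2.54, 2.28 and 3.16 FPKM in F5. The gene therefore rose in both sexes between stages 1 and 5, by 2.81 ± 0.30 log2 units in female and 2.10 ± 0.29 in male flowers, and at stage 4 the rise was seen in female flowers, with 1 of 3 M4 libraries above 1 FPKM. IPT6 LITCHI028915.m1 followed at a lower level, with 0.877, 0.536 and 0.633 FPKM in F4 against 0.126, 0.0719 and 0.168 in M4 (2.21 ± 0.48, FDR = 0.00061), and was not called at stage 5. Summed over the 6 IPT members, the level was 0.710 ± 0.041 FPKM in F1 and 4.69 ± 0.69 in F5 (SD, n = 3), and 0.830 ± 0.038 in M1 and 2.77 ± 0.40 in M5. FPKM ratios at full bloom lie above the fitted ones. The fitted difference at stage 5 was -0.24 ± 0.27 for LITCHI005554.m1. Of 4 tested IPT members 3 had positive values there, and 0 were called, beside 29.2% of all genes.

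The 2 CYP735A1 genes went in opposite directions. LITCHI008484.m1 was at 0 to 0.692 FPKM in every bud library of stages 1 and 2, and then appeared at stage 3 in both sexes, at 2.60, 2.24 and 2.02 FPKM in F3 and 4.63, 3.62 and 3.48 FPKM in M3. Female flowers kept it at stage 4, with 2.94, 3.29 and 2.72 FPKM in F4, whereas M4 held 0.192, 0.177 and 0.138 FPKM. The log2 fold change was 3.87 ± 0.77 (FDR = 0.00024), a 14.6-fold difference, and from M3 to M4 the gene fell by 4.37 on the log2 scale (SE 0.78, FDR = 6.7e-05). At full bloom the difference was 2.43 ± 0.72 (FDR = 0.0056), and this call was lost when replicate 2 or 3 of F5 or replicate 1 or 2 of M5 was left out (2.06 to 2.43, FDR 0.012 to 0.034).

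The second hydroxylase gene, LITCHI009356.m1, was higher in male flowers. It read 3.46, 2.03 and 2.66 FPKM in M4 and 0.299, 0.197 and 0.265 in F4, and 1.70, 1.84 and 1.43 in M5 and 0.456, 0.279 and 0.135 in F5. Neither pair of ranges overlapped. The log2 fold changes were -3.62 ± 0.43 (FDR = 4.2e-07) at stage 4 and -2.96 ± 0.41 (FDR = 1.8e-06) at full bloom. Both sexes expressed it from stage 1 on, with 0.716 ± 0.10 FPKM in F1 and 1.48 ± 0.21 FPKM in M1.

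LOG enzymes, which release the active bases, were the most numerous family and 14 were tested. At stage 4, 3 passed (21.4%, beside 16.9% of all genes), 1 towards female and 2 towards male flowers, and at full bloom 2 passed (14.3%, beside 29.2%), 1 in each direction. The first share was near that of all genes and the second below it. The most abundant, LOG3 LITCHI010143.m1, stood at 45.5, 41.4 and 43.9 FPKM in M1 and at 23.5, 20.2 and 21.3 in F1. By M5 it was down to 0.696, 1.41 and 1.18 FPKM, while F5 held 13.2, 8.73 and 8.14 FPKM. At full bloom the ranges lay far apart, and female flowers were 6.50-fold higher (log2 2.70 ± 0.37, FDR = 1.1e-06). The order of the sexes was the reverse at stage 1, where male flowers had the higher level in FPKM without overlap but the gene was not called (-1.07 ± 0.33, FDR = 0.045). Its fall from stage 1 to stage 5 was 4.95 log2 units in male flowers (SE 0.40, FDR = 1.7e-10) and 1.18 in female flowers (SE 0.33, FDR = 0.0067); the female call was lost without any 1 of 5 libraries of F1 and F5 (fold changes of -1.02 to -1.22). In M4 the 3 replicates were spread widely, at 12.8, 9.83 and 2.76 FPKM.

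LOG1 LITCHI024656.m1 changed order between the sexes. In F1 it read 4.35, 5.33 and 4.32 FPKM and in M1 12.4, 13.8 and 14.4 (-1.60 ± 0.20, FDR = 2.7e-05), whereas in F4 it read 9.63, 10.7 and 10.5 and in M4 4.32, 3.46 and 3.24 (1.26 ± 0.20, FDR = 1.4e-05). Neither stage showed overlap. At full bloom the difference of 0.69 ± 0.19 was under the fold threshold. LOG3 LITCHI018593.m1 was lower at full bloom than at stage 1 in both sexes (-2.57 ± 0.22 in female and -3.01 ± 0.23 in male flowers). The sexes parted at stage 4, with 2.29, 1.93 and 2.38 FPKM in F4 against 6.95, 5.23 and 3.66 in M4 (-1.47 ± 0.21, FDR = 6.5e-06). By full bloom the values were 2.09, 1.72 and 1.74 in F5 and 1.29, 0.970 and 0.686 in M5, a difference that was not called (0.44 ± 0.22).

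LOG8 LITCHI017321.m1, the second most abundant LOG, was higher in male flowers at stage 4, at 27.9, 22.6 and 20.8 FPKM in M4 against 11.4, 13.9 and 13.3 in F4 (-1.10 ± 0.13, FDR = 4.6e-07). With library totals as the scale the difference was -0.88 and fell short of the fold threshold. LOG5 LITCHI002108.m1 marked the smallest buds of both sexes, with 12.1, 12.4 and 10.2 FPKM in F1 and 9.53, 10.4 and 7.53 in M1, and no library of stages 2 to 4 exceeded 1.43 FPKM. It was higher again in M5, at 4.70, 4.28 and 3.06 FPKM, than in F5, at 1.18, 1.21 and 1.38 (-2.13 ± 0.34, FDR = 9.3e-06). Entries that share a locus, such as the LOG1 and LOGL10 entries of LITCHI004399 and both LOG7 entries of LITCHI018950, could have had reads divided between them by the counting, and their values are uncertain. With the entries of each locus summed, LOG7 LITCHI018950 was called lower in female flowers at stage 4 (-1.06, FDR = 0.0035) and full bloom (-1.56, FDR = 3.8e-05), while neither entry was called alone.

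CKX genes, whose products break cytokinins down, held the largest difference between the sexes at full bloom among the called members. CKX3 LITCHI017617.m1 was at 0.587 FPKM or less in all 18 bud libraries. It then rose to 5.35, 8.38 and 9.25 FPKM in M4 and to 14.4, 16.9 and 15.5 FPKM in M5, against 1.14, 0.835 and 0.759 in F4 and 0.839, 1.03 and 1.03 in F5. Male flowers were higher at stage 4 (-3.29 ± 0.66, FDR = 0.00028) and at full bloom (-4.48 ± 0.70, FDR = 7e-06), a 22.4-fold difference at the latter. The step from stage 3 to stage 4 was 7.06 ± 0.82 log2 units in male flowers (FDR = 2.2e-07) and 3.91 ± 0.75 in female flowers (FDR = 0.00029).

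CKX7 LITCHI017392.m1, 1 of 2 entries of its locus, was likewise higher in male flowers at full bloom, with 12.4, 8.21 and 13.8 FPKM in M5 and 3.30, 3.52 and 4.36 in F5 (-2.10 ± 0.19, FDR = 1.9e-09). At stage 4 it was not called (0.18 ± 0.18). CKX5 LITCHI010235.m1 took another course, with its highest values at stage 3 in both sexes: 22.6, 19.8 and 23.3 FPKM in F3 and 18.8, 17.1 and 17.3 in M3. At stage 4 it was at 3.98, 4.07 and 5.07 FPKM in F4 and 2.26, 2.53 and 1.92 in M4, having fallen by 2.37 and 2.88 log2 units. In F2 its replicates read 5.44, 9.24 and 17.4 FPKM, the widest spread of the 10 groups. It was not called between the sexes at any stage. CKX1 LITCHI008772.m1 was higher in female flowers at full bloom, at 1.28, 0.795 and 1.02 FPKM in F5 and 0.276, 0.178 and 0.261 in M5 (1.62 ± 0.35, FDR = 0.00031). Its call at stage 4 (1.16 ± 0.33) was lost without any single F4 or M4 library or without replicate 2 of M2 (0.94 to 1.24).

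**Figure D2:**
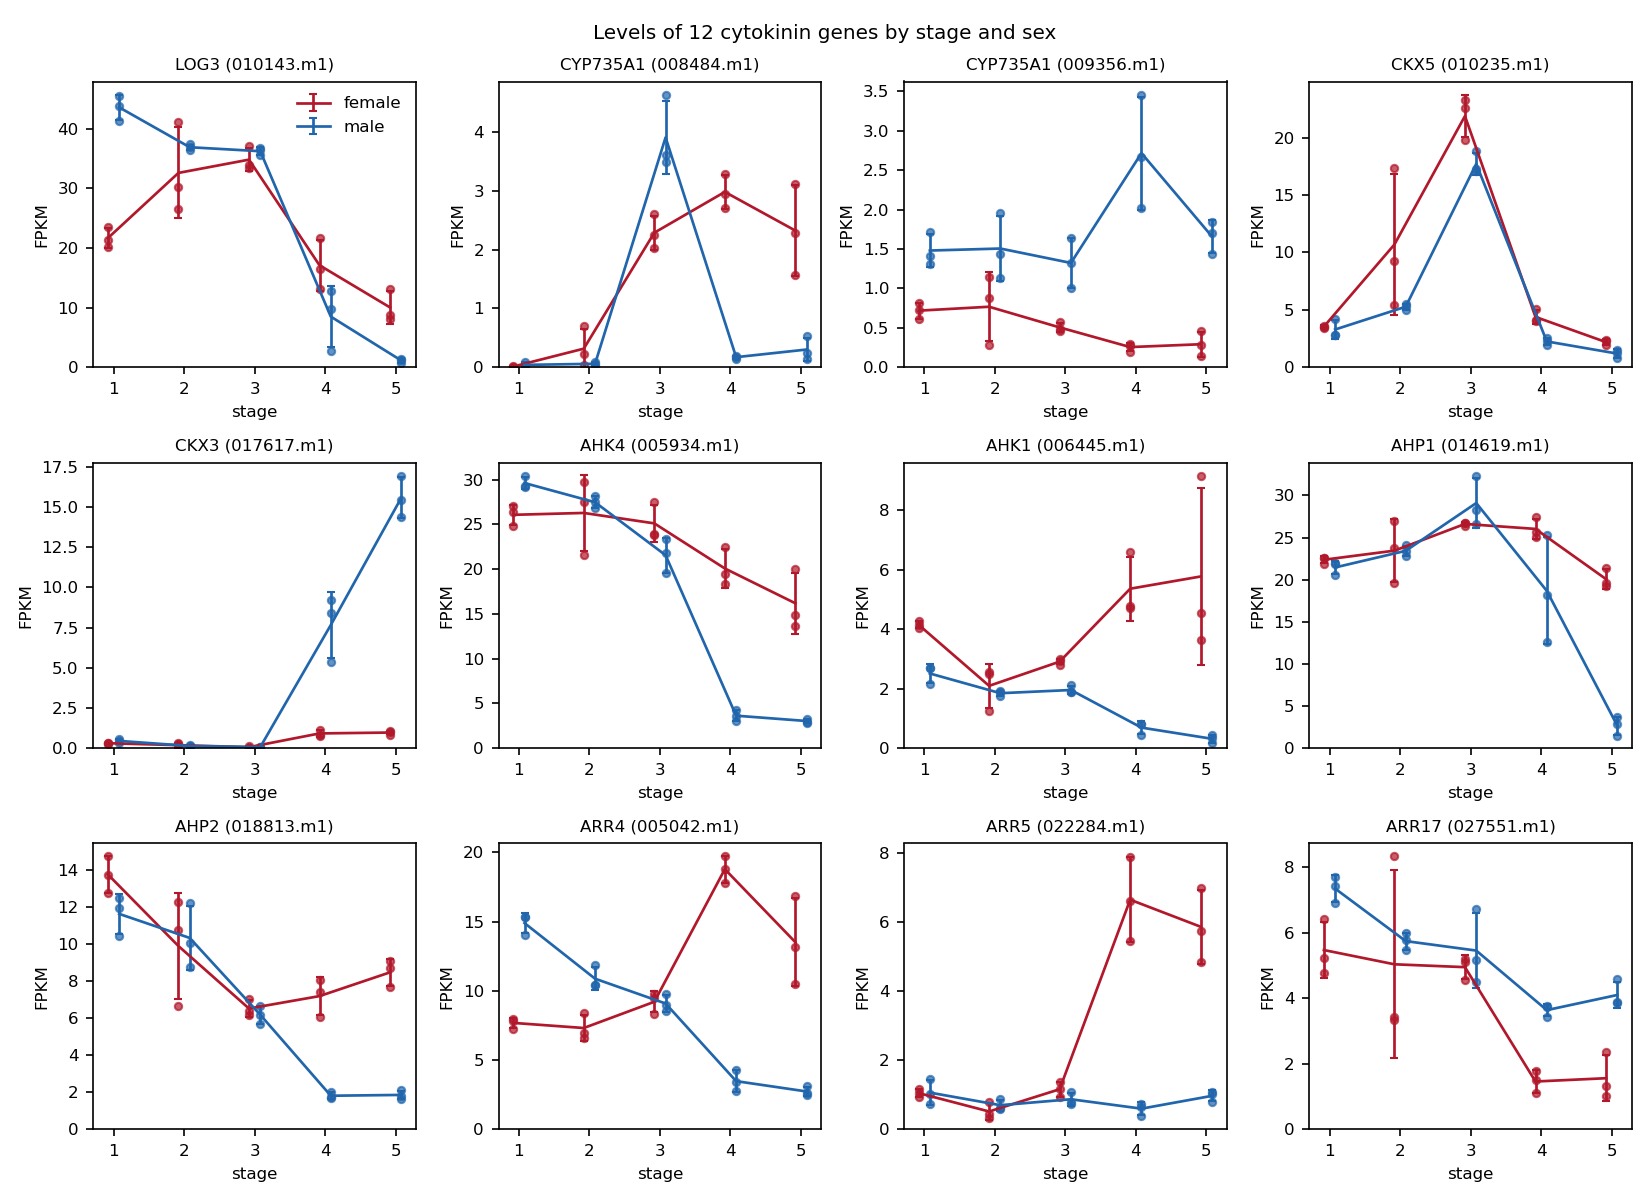
FPKM of 12 members by stage in female (red) and male (blue) flowers, with points for libraries and lines with bars for the mean and SD of 3 replicates. From stage 3 to stage 5, AHK4 falls from 21.6 to 3.03 FPKM in male flowers while CKX3 rises from 0.0612 to 15.6.

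Of 7 tested histidine kinases, 4 were called at full bloom, all higher in female flowers, beside 29.2% of all genes called and 17.6% called higher. These were the cytokinin receptors AHK4 and AHK2 and the kinases AHK1 and AHK5, while the receptor AHK3 was not called. AHK4 LITCHI005934.m1, the Arabidopsis cytokinin receptor also named CRE1, was at 29.2, 30.4 and 29.3 FPKM in M1 and 27.0, 24.8 and 26.4 in F1. All bud libraries held 19.5 to 30.4 FPKM, and the level then dropped in male flowers, to 4.23, 3.62 and 3.01 FPKM in M4 and 3.28, 2.85 and 2.94 in M5. In female flowers it read 22.5, 19.4 and 18.3 in F4 and 13.6, 14.9 and 20.05 in F5. There was no overlap at either open stage, and the differences were 2.25 ± 0.12 (FDR = 8.7e-12) and 1.94 ± 0.12 (FDR = 5.5e-12), or 4.77-fold and 3.83-fold. The fall from M3 to M4 was 2.47 log2 units (SE 0.12, FDR = 5.1e-13).

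AHK3 LITCHI004641.m1, another cytokinin receptor, was the most abundant member, with a mean of 51.8 FPKM over the 30 libraries and group means of 39.3 to 66.3. At full bloom it read 73.6, 59.3 and 65.9 FPKM in F5 and 58.2, 64.5 and 65.5 in M5. These overlap, and the fitted difference of -0.39 ± 0.10 was under the fold threshold and changed sign, to 0.08, with library totals. AHK2 LITCHI021449.m1, the other cytokinin receptor of this group, was at 15.4, 23.4 and 19.5 FPKM in F5 and 6.87, 5.19 and 6.64 in M5 (1.17 ± 0.15, FDR = 6.5e-07). Without F5 replicate 2 its difference was 1.00 and just under the threshold.

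AHK1 LITCHI006445.m1, a histidine kinase known in Arabidopsis for osmosensing and not for binding cytokinin, had the largest called difference towards female flowers at full bloom. It read 4.54, 3.62 and 9.15 FPKM in F5 and 0.349, 0.157 and 0.431 in M5 (3.71 ± 0.34, FDR = 2.8e-09), with 6.60, 4.78 and 4.70 in F4 and 0.816, 0.806 and 0.445 in M4 at stage 4 (2.74 ± 0.32, FDR = 4.3e-07). AHK5 LITCHI016835.m1, another histidine kinase without a cytokinin-binding role in Arabidopsis, was called between the sexes at full bloom and at no other stage (1.24 ± 0.20, FDR = 1.5e-05). Of the 4 entries named CKI1, a kinase that in Arabidopsis acts in the female gametophyte, LITCHI015194.m1 had no count. LITCHI004133.m1 was the most abundant of them, at 1.23, 1.19 and 1.36 FPKM in F4 and 0.601, 0.573 and 0.297 in M4. It was not called (1.14 ± 0.63, FDR = 0.14), although the ranges did not overlap. LITCHI026596.m1 had 10 and 12 counts over the 3 libraries of F4 and F5 and 0 in M4 and M5, and LITCHI026549.m1 reached no more than 12 counts in any group.

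HPt proteins carry the phosphoryl group from kinase to regulator, and 3 of 5 tested were called at full bloom, all higher in female flowers, where 17.6% of all genes were. AHP1 LITCHI014619.m1 stood between 19.5 and 32.4 FPKM in all bud libraries of both sexes. At full bloom it read 19.2, 19.6 and 21.4 FPKM in F5 and 3.65, 1.49 and 2.83 in M5 (2.45 ± 0.21, FDR = 1.3e-09). M4 lay between, at 25.3, 18.1 and 12.6 FPKM, and overlapped with the 25.0, 27.4 and 25.7 of F4 (0.26 ± 0.20).

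For AHP2 LITCHI018813.m1, named after a rice protein, the sexes differed at stage 4 already. It read 1.72, 2.01 and 1.68 FPKM in M4 and 2.09, 1.65 and 1.81 in M5, beside 7.44, 6.08 and 8.06 in F4 and 8.69, 7.66 and 9.09 in F5 (1.77 ± 0.16 and 1.72 ± 0.16, FDR = 1.1e-08 and 3.6e-09). AHP5 LITCHI026323.m1 was higher in every female than in every male library at each stage, from 12.6, 13.2 and 12.2 against 9.55, 10.01 and 10.002 FPKM at stage 1 to 14.5, 16.8 and 17.1 against 5.39, 4.36 and 3.59 at stage 5, and passed the fold threshold at full bloom (1.38 ± 0.11, FDR = 1.3e-10). Summed over the 7 HPt members, levels were 52.4 ± 1.9 FPKM in F1 and 54.3 ± 1.1 in F5, and 46.2 ± 1.3 in M1 and 13.4 ± 1.9 in M5.

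Type A response regulators had the highest share of calls at stage 4 among families with over 4 tested members, with 4 of 6 called, 3 of them higher in female flowers, beside 16.9% of all genes called and 9.55% called higher. ARR4 LITCHI005042.m1, the most abundant, read 7.99, 7.24 and 7.80 FPKM in F1 and 15.3, 14.03 and 15.3 in M1. At stage 4 the order was the opposite, with 19.8, 18.8 and 17.8 in F4 and 4.27, 3.40 and 2.73 in M4. At full bloom F5 read 13.2, 10.5 and 16.8 and M5 2.47, 3.12 and 2.58. The log2 fold changes were -1.02 ± 0.14 (FDR = 0.00011), 2.22 ± 0.15 (FDR = 1.2e-10) and 1.83 ± 0.15 (FDR = 2.9e-10) at stages 1, 4 and 5. The stage 1 call lay at the fold threshold and was lost with library totals and without any 1 of 8 libraries, 3 of them of stage 1 and 5 of other male stages (-0.953 to -0.996).

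ARR5 LITCHI022284.m1, in Arabidopsis a common reporter of cytokinin response, stood between 0.322 and 1.45 FPKM in all bud libraries. In female flowers it rose on opening, to 7.90, 6.61 and 5.44 FPKM in F4 and 5.75, 4.86 and 6.996 in F5. In male flowers it read 0.741, 0.387 and 0.649 in M4 and 0.785, 1.02 and 1.09 in M5, within its bud range. The differences were 3.27 ± 0.32 (FDR = 2.6e-08) and 2.11 ± 0.30 (FDR = 2.3e-06), or 9.64-fold and 4.32-fold. The third, ORR9 LITCHI019994.m1, was called at stage 4 (1.20 ± 0.22, FDR = 9e-05), which was lost without M4 replicate 1 (0.91).

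ARR17 LITCHI027551.m1 was the 1 type A gene called higher in male flowers at stages 4 and 5. Its values were 3.42, 3.75 and 3.73 FPKM in M4 and 1.09, 1.49 and 1.78 in F4, and 3.85, 4.57 and 3.87 in M5 and 2.35, 1.01 and 1.31 in F5 (-1.54 ± 0.30 and -1.86 ± 0.31, FDR = 0.00024 and 1.6e-05). ARR17 is known from poplar, where an ARR17-like gene determines female sex. The other litchi entry of that name, LITCHI027548.m1, was not called at any stage, with 1.74, 2.01 and 1.72 FPKM in F4 and 1.23, 0.680 and 0.302 in M4 (1.08 ± 0.44, FDR = 0.047), and 2.10, 1.19 and 2.15 in F5 and 1.04, 2.24 and 1.71 in M5, which overlapped. ARR9 LITCHI008695.m1 was higher in female flowers in FPKM at both open stages without reaching a fold of 2, at 10.6, 11.3 and 10.8 in F5 and 5.68, 5.47 and 4.87 in M5 (0.55 ± 0.14).

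Type B regulators, the transcription factors of the pathway, had 1 call among 9 tested at stage 4 (11.1%) and 2 at full bloom (22.2%), all higher in female flowers. Both shares were below those of all genes (16.9% and 29.2%). ARR12 LITCHI016915.m1 read 6.59, 6.77 and 6.73 FPKM in F5 and 1.81, 1.39 and 1.74 in M5 (1.55 ± 0.14, FDR = 2.2e-09), and 1.11 ± 0.14 log2 units separated the sexes at stage 4 (0.92 without M4 replicate 3, under the fold threshold). ARR11 LITCHI004770.m1 differed at full bloom by 1.27 ± 0.15 (FDR = 1.8e-07). The most abundant type B gene, ORR21 LITCHI005869.m1, read 29.96, 35.1 and 29.9 FPKM in F5 and 13.1, 12.5 and 13.1 in M5. Its ranges did not overlap, while the fitted difference of 0.82 ± 0.08 (FDR = 5e-09) was under the fold threshold. ARR2 LITCHI014413.m6 was not called (0.08 ± 0.23). Another entry of its locus, LITCHI014413.m10, was listed at 0 in most libraries and at up to 15.2 FPKM in a replicate of the same group, and with 5 entries at that locus the division of reads between them is uncertain.

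Type C regulators resemble type A in their receiver domain but are not induced by cytokinin in Arabidopsis. The 4 litchi entries are all named ARR22 and had low levels. LITCHI003458.m1 was highest in small buds, at 3.13, 3.08 and 2.18 FPKM in F1 and 2.38, 2.64 and 1.57 in M1, and reached at most 0.395 FPKM in any library of open flowers. It fell in female flowers by 3.44 log2 units from stage 1 to stage 5 (SE 0.95, FDR = 0.0058) and was called lower in male flowers too (FDR = 0.00017), where it had 139 counts over the 3 libraries of M1 and 1 count over those of M5, too few for a fold. The female call was lost without any 1 of 5 libraries. The other 3 entries, LITCHI012615.m1, LITCHI003498.m1 and LITCHI025910.m1, had group means of at most 0.594 FPKM and none was called between the sexes; LITCHI003498.m1 had no count in F5 or M5.

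**Figure D3:**
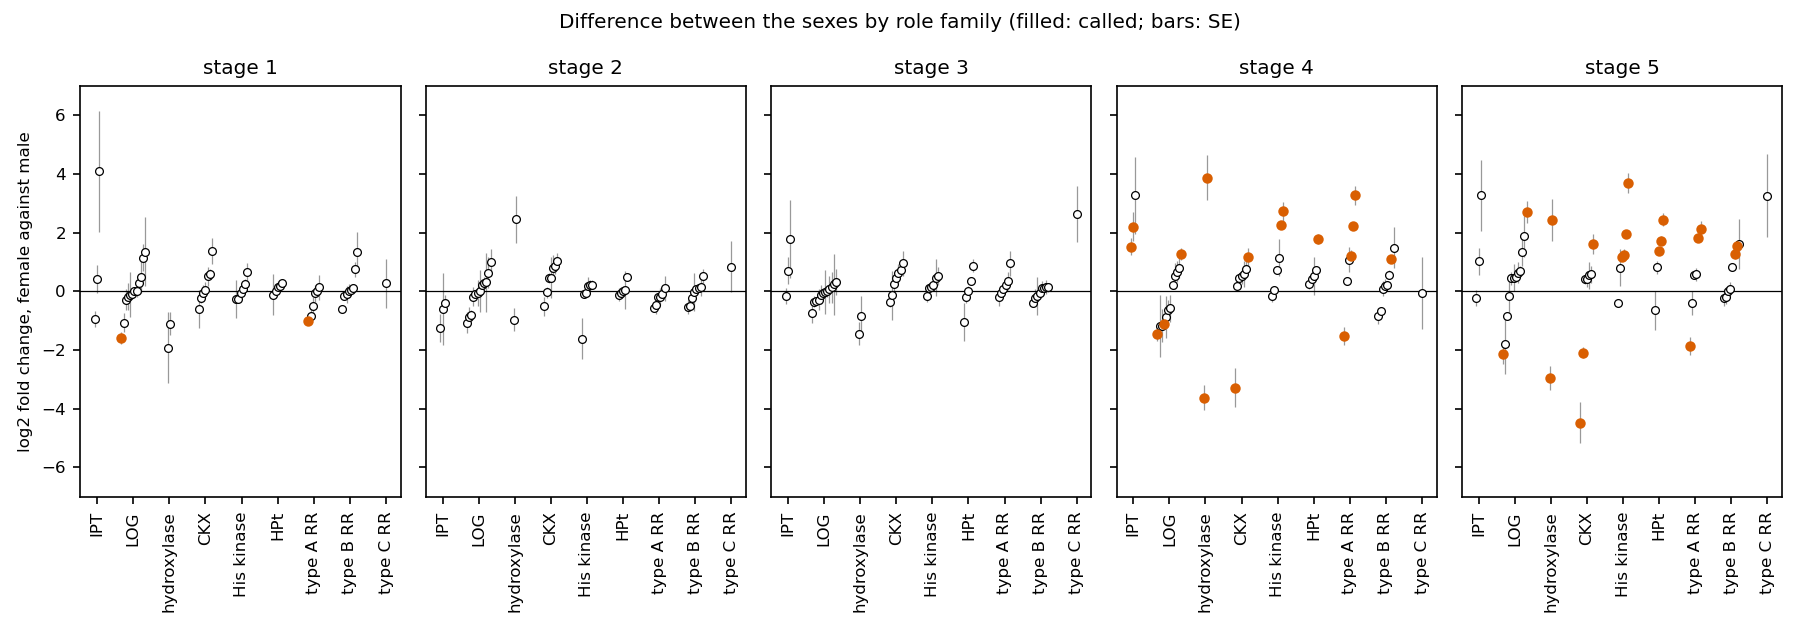
Log2 fold change of female against male flowers by role at each stage, for the 50 tested members that reached 1 CPM in some group, without the uneven ARR2 entry; filled points were called and bars are SE. At stages 1 to 3 only 2 points are filled, and at full bloom the filled histidine kinases and HPt proteins all lie above 0.

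The course from the smallest buds to full bloom differed between the sexes for many of these genes. From stage 1 to stage 5, 17 members were called in female flowers (14.8% of all genes), 7 higher and 10 lower at full bloom (7.44% and 7.31% of all genes). In male flowers 24 were called (36.8% of all genes), 6 higher and 18 lower, where 15.3% of all genes were higher and 21.5% lower. The members' median change was -0.82 in male flowers, beside -0.08 over all genes, and 0.09 in female flowers, beside 0.00. Of the members, 10 were called in both sexes, an overlap that was not counted over all genes. Of these 10, 9 went in the same direction, and LOG1 LITCHI024656.m1 was the exception (1.02 ± 0.19 in female and -1.26 ± 0.19 in male flowers). Its female call stood at the fold threshold and was lost without any 1 of 4 libraries of F1 and F5 (0.855 to 0.9998).

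No histidine kinase of 7 tested was called in female flowers from stage 1 to stage 5, and 4 were called lower in male flowers, where more genes were called in all (14.8% in female and 36.8% in male flowers, 21.5% lower in the latter). One of these, AHK2, stood at the fold threshold (FDR = 4.3e-06) and lost its call under most alternatives. Of HPt members, AHP1 LITCHI014619.m1 and AHP2 LITCHI018813.m1 fell in male flowers by 2.69 (SE 0.22) and 2.33 (SE 0.16) log2 units, while AHP1 LITCHI003861.m1 rose in female flowers, from 3.35, 3.43 and 3.24 FPKM to 11.1, 8.84 and 7.69 (1.39 ± 0.22, FDR = 2.7e-05). Among CKX genes, both CKX1 entries were lower at full bloom in both sexes, LITCHI008772.m1 by 2.35 log2 units in female and 3.47 in male flowers and LITCHI008773.m1 by 3.71 and 2.87.

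The step from closed bud to stage 4 was compared in each sex. From M3 to M4, 15 members were called (20.4% of all genes), 2 higher and 13 lower (7.73% and 12.6% of all genes). From F3 to F4, 10 were called (12.1% of all genes), 3 higher and 7 lower (4.56% and 7.51% of all genes). Without F2 replicate 3, 4 members were higher and 14 lower in M4. With the entries of each locus summed, 5 loci were higher and 13 lower. The loci called higher only there were LOG7 LITCHI018950, CYP735A1 LITCHI009356 and ARR22 LITCHI003498. CYP735A1 LITCHI009356 and ARR22 LITCHI003498 have 1 entry at their locus, so summing left their own counts unchanged. ARR22 LITCHI003498 averaged 0 CPM in M3 and 0.43 in M4. Without summing, the 2 members higher in M4 were CKX3 and LOG5 LITCHI002108.m1. The LOG5 call was lost with only the groups compared (1.56, FDR = 0.070). The 3 members higher in F4 were CKX3, ARR5 and the IPT entry LITCHI005554.m1.

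An interaction term compared the female and male courses from stage 1 to stage 5 directly. The difference passed for 17 members (22.6% of all genes), or 29.8% of those tested, with 13 more positive in female flowers and 4 more positive in male flowers (14.7% and 7.84% of all genes). With the entries of each locus summed the counts were 13 and 6. The loci called only there were LOG7 LITCHI018950 (-2.13) and ARR17 LITCHI027551 (-1.41). The ARR17 locus has 1 entry, so its own counts were unchanged. The most positive were LOG3 LITCHI010143.m1 (3.77 ± 0.49, FDR = 1.4e-06), AHK1 (3.05 ± 0.44, FDR = 5.7e-06) and ARR4 (2.85 ± 0.20, FDR = 2.7e-10), and the most negative were CKX3 (-3.86 ± 0.91, FDR = 0.0013), LOG5 LITCHI002108.m1 (-2.40 ± 0.46, FDR = 0.00017) and CKX7 (-1.87 ± 0.26, FDR = 3.4e-06). The 13 held 3 histidine kinases, 3 HPt proteins, 5 response regulators and 2 LOG genes, and the 4 held 2 CKX genes, a LOG gene and a hydroxylase gene.

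**Figure D4:**
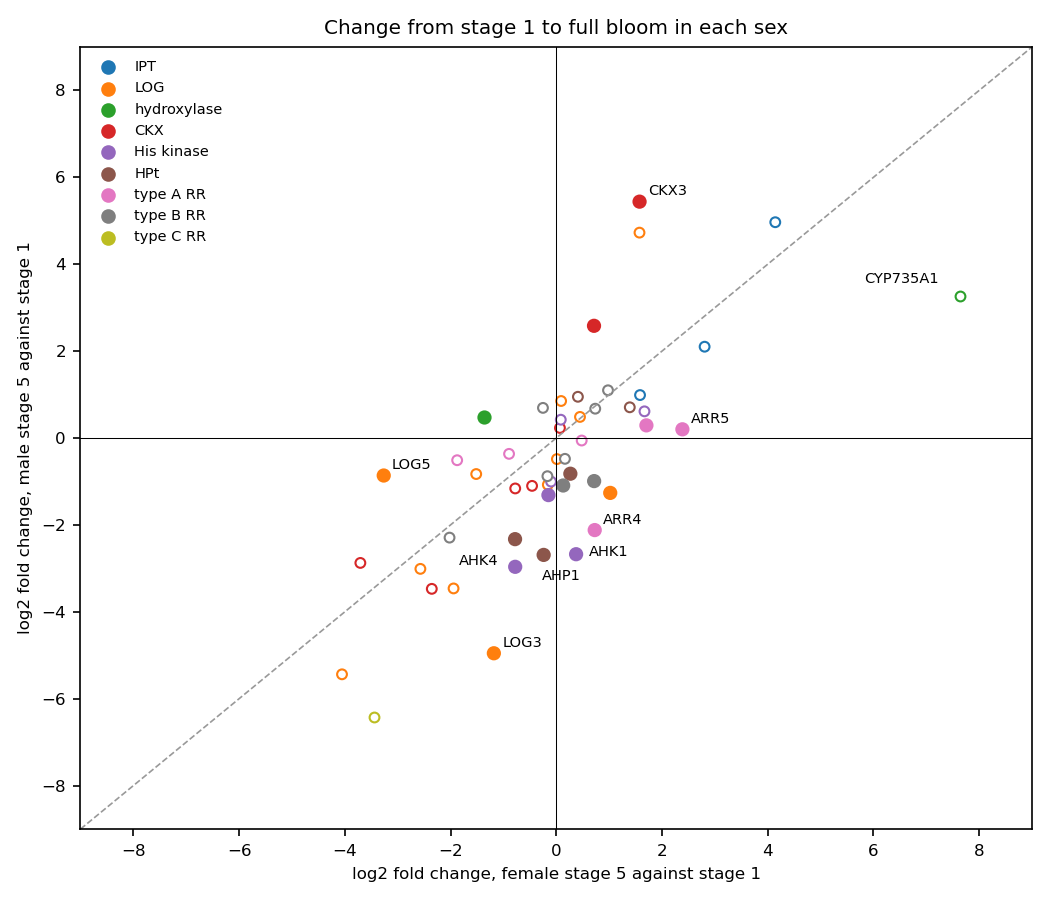
Log2 fold change from stage 1 to full bloom in female (horizontal) and male (vertical) flowers for 50 tested members, coloured by role; filled points had a called interaction and the dashed line marks equal change. CKX3 lies at 1.58 and 5.44 and LOG3 at -1.18 and -4.95, while the rightmost point (CYP735A1 LITCHI008484.m1) and the lowest (ARR22 LITCHI003458.m1) rest on 2 counts over F1 and 1 count over M5 and give no reliable size.

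Other genes, listed as related to cytokinins but not taken by the selection, were counted for comparison. Their names do not hold the word cytokinin, and many are of purine or nucleoside transport and salvage. They were tRNA dimethylallyl transferases, zeatin O-glycosyltransferases, purine permeases, nucleoside transporters, the exporter ABCG14, adenine salvage enzymes, UDP-glycosyltransferases 76C and 85A (3 entries, 0 tested) and cytokinin response factors (CRF). Of these 59 entries, 51 were tested. At stage 4 the test called 14 of these (27.5%, beside 16.9% of all genes), 6 towards female and 8 towards male flowers, and at full bloom also 14 (27.5%, beside 29.2%), 7 in each direction, with medians of 0.09 and 0.16. The share at full bloom was near that of all genes. ABCG14 LITCHI017852.m1, in Arabidopsis a root-to-shoot cytokinin exporter, was higher in female flowers at both stages (3.07 and 2.15 log2 units, FDR = 4.1e-08 and 1.4e-06), as was CRF2 LITCHI021987.m1 (2.31 and 2.78, FDR = 2.1e-06 and 8.1e-08). Of 12 purine permeases tested, 4 were called at stage 4, all lower in female flowers, beside 7.4% of all genes called lower. At full bloom 4 were lower and 1 higher, beside 11.6% and 17.6% of all genes. Of 6 zeatin O-glycosyltransferases tested, 4 were called at stage 4, 3 lower and 1 higher, and 0 at full bloom.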

How the data were processed

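The authors deposited 1 table with raw counts and FPKM values for every gene and library. Per the methods, reads were trimmed with Trimmomatic, ribosomal reads discarded and expression values computed by Cufflinks, and the submitters' processing notes name HISAT2 2.0.4 and StringTie. The counting tool and genome build are not given in the sources used here. Positions are therefore not stated. The authors' columns of DESeq2 results (FDR and log2 fold change) were not used.

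Counts were fitted with edgeR 4.0.16 (R 4.3.3, limma 3.58.1): filterByExpr on the 10 groups kept 27854 genes and removed 9380, TMM factors ranged from 0.7743 to 1.1634, and all 30 libraries entered 1 quasi-likelihood model. The study's thresholds, FDR under 0.01 and a fold of 2, defined a call. SE is the size of the log2 change over the root of its F statistic. Scripts were tested on simulated data. FPKM was used for levels only. DESeq2 1.42.0 was an alternative, with other scalings and filters, entries of a locus summed (each locus counted once), a replicate block, and single libraries left out.

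Members and lists were chosen with earlier results of these data known. Named were the 2 most abundant members per family, those called at stages 1 to 3, the 5 largest calls per direction at stages 4 and 5, all ARR17, ARR22 and CKI1 entries, and the 3 largest interactions per direction. CKX1, LOG7 LITCHI018950, AHK2, AHK5, AHP1 LITCHI003861, AHP2, ORR9, ARR11, ARR12 and the uneven ARR2 entry were named after their values were seen. So were the single genes and families of the comparison list. All columns of counts and FPKM were matched to a library. The table holds no sequences, and none are shown.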

Additional observations from a re-analysis of the deposited data

Results flagged for a closer look

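For 17 members the change from stage 1 to full bloom differed between female and male flowers by the interaction test of edgeR. The values, as the female minus the male log2 fold change, were positive for LOG3 LITCHI010143.m1 (3.77), AHK1 (3.05), ARR4 (2.85), AHP1 LITCHI014619.m1 (2.45), LOG1 LITCHI024656.m1 (2.28), AHK4 (2.19), ARR5 (2.19), ARR12 LITCHI016915.m1 (1.71), AHP2 LITCHI018813.m1 (1.55), ORR9 (1.41), ARR11 LITCHI004770.m1 (1.22), AHK5 (1.16) and AHP5 (1.09). They were negative for CKX3 (-3.86), LOG5 LITCHI002108.m1 (-2.40), CKX7 LITCHI017392.m1 (-1.87) and CYP735A1 LITCHI009356.m1 (-1.86). The call for AHK5 was lost without F5 replicate 1, that for AHP5 without M5 replicate 3, and that for CYP735A1 LITCHI009356.m1 with library totals, with the replicate block, with only the groups compared and without any 1 of 11 libraries.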

How the results depend on the processing

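Of 31 called values named by the rule, 28 kept their call and direction under every alternative run. Counts of called members that moved by over 1.5 times were at stage 1 with library totals (1) or only the groups compared (4, against 2), and at stages 2 and 3 with DESeq2 (1 each, against 0). Leaving out single libraries gave 1 to 3 calls at stage 1, 0 to 4 at stage 2, 0 to 1 at stage 3, 15 to 17 at stage 4 and 18 to 21 at stage 5, with 12 to 19 for F5 against F1, 21 to 25 for M5 against M1, 8 to 12 for F4 against F3, 12 to 18 for M4 against M3 and 16 to 19 for the interaction. The call at stage 3 came without F2 replicate 1. With library totals 28 members were called at stage 5 (82.1% of them higher in female flowers, against 73.7%). Over all 27854 genes that scale gave 9144 calls, 7432 of them higher in female flowers, against 8122 and 4891. The members' share higher at F4 against F3 was 41.7%, against 30%. Over all genes 1358 of 3320 calls were higher there, against 1271 of 3362. With the entries of each locus summed, 53 loci were tested, and 18 were called at stage 4 and 20 at stage 5 (6 lower in female flowers at each), 21 for F5 against F1, 24 for M5 against M1, 13 for F4 against F3, 18 for M4 against M3 (27.8% of them higher, against 13.3%) and 19 for the interaction. Some calls made only there were at loci with 1 entry, where nothing was summed, such as LOG3 LITCHI010143 in F4 against F3 (-1.07, FDR = 0.0082). Uncalled differences at stage 5 turned sign with library totals for IPT LITCHI005554.m1 (0.24), AHK3 (0.080) and ARR17 LITCHI027548.m1 (0.085), and ranged from -0.067 to 0.30 without single libraries for ARR2 LITCHI014413.m6. With only the groups compared, calls were lost for IPT LITCHI005554.m1 (1.57, FDR = 0.018) and ORR9 (1.25, FDR = 0.012) at stage 4, for CKX3 in F4 against F3 (3.95, FDR = 0.023), for LOG5 LITCHI002108.m1 in M4 against M3 and for LOG1 LITCHI024656.m1 in F5 against F1 (1.08, FDR = 0.01004). The cause of these changes was not tested.

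Same-numbered replicates showed no shared shift over all genes, with correlations of their deviations between -0.05 and 0.04. Whether they share a tree or batch is not given, and these correlations cannot tell. With the replicate block, 2, 0, 0, 17 and 19 members were called at stages 1 to 5, and 15 for F5 against F1, 23 for M5 against M1 and 16 for the interaction.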
